A study of Mus musculus with 30 samples.

Results

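The genes of the subunits of RNA polymerases I, II and III were described in 8-cell mouse embryos, with and without knockdown of Yy1, which encodes YY1, a DNA-binding protein of the zinc finger class. Members are the rows of the authors' expression table whose symbol is Polr followed by 1, 2 or 3 and letters. There were 28 such rows among 49585, of which 27 are described: 5 with a Pol I symbol, 13 with a Pol II symbol and 9 with a Pol III symbol. The series holds 30 samples, of which the 4 RNA-seq libraries were used and the other 26 were not analysed here. Control embryos received a control knockdown (2 libraries), and Yy1 knockdown embryos the siRNA that the labels number 1 (2 libraries). All 4 libraries came from embryos of the cross BDF1 x BDF1. A single siRNA stands behind the knockdown group, and the labels do not say how many embryos went into a library or whether the replicates are separate collections.

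RNA polymerase I makes the precursor of the large ribosomal RNAs in the nucleolus, RNA polymerase II makes messenger RNAs, and RNA polymerase III makes transfer RNAs and other short RNAs. Each enzyme has a catalytic centre formed by its largest and second largest subunits, a set of small subunits that all the enzymes share, and subunits of its own that recruit initiation factors or help in cleavage and termination. In the mouse embryo these enzymes take over from stored maternal RNA when the embryo's own genome is switched on, before the stage studied here.

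Levels are FPKM, fragments scaled to the length of the gene and to the total of the library. A comparison between genes depends on the length used for each. Worked out from the values, the lengths ran from 543 bases for Polr2f to 11871 bases for Polr1a. Whether these match the transcripts present was not tested. Depth, recovered from the values, was 29302487 to 34429513 fragments per library. Yy1 stood at 77.7 and 71.2 FPKM in the control and at 5.89 and 7.98 FPKM in the knockdown libraries, a 10.7-fold lower mean (limma adjusted p = 0.0556). Of 10 marker genes of the early embryo, 9 exceeded a mean of 1 FPKM. The list summed to 2598 to 2729 FPKM per library, mostly from Dppa3 at 1985 to 2128 FPKM. Among 12 cumulus and granulosa cell markers 5 were at 0 in every library, and their sum was higher after knockdown (7.95 and 7.9 FPKM) than in control (5.53 and 5.58 FPKM), mostly from Amhr2, the only marker of that list above 1 FPKM. The 10 sperm markers summed to 2.79 to 6.53 FPKM, with 5 at 0 in every library. Most of that sum came from Odf2 at 2.67 to 4.9 FPKM, the only sperm marker with a mean above 1 FPKM. The 7 blood markers summed to 0.605 to 1.75 FPKM, with 2 at 0. The part of such cells in the results below was not tested. Fewer cells of a type and less RNA per cell cannot be told apart in these bulk libraries.

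Transcripts of 26 of the 27 subunit genes described were above the filter of a mean of 1 FPKM over the 4 libraries, and none of these 26 passed the test for a difference after Yy1 knockdown. The exception below the filter was Polr3gl. The test was limma on log2(FPKM + 1) over all 12120 rows above the filter, with a Benjamini-Hochberg adjusted p of 0.05 as threshold. It called 0 rows of the whole table (0%), while 1079 rows had an unadjusted p under 0.05. Yy1 itself did not pass (limma adjusted p = 0.0556), so the absence of calls does not show that the members were unchanged. The smallest limma adjusted p of a member was 0.502, for Polr1c. At an unadjusted p under 0.05, 2 of the 26 were found, Polr1c and Polr2f, both lower, against 8.9% of all rows in either direction, 4.22% higher and 4.69% lower. Limma-voom on recovered fragments called 13 rows of the table, and no member was among them.

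By group means 13 members were higher and 13 lower (53.2% and 46.8% of all tested rows), with a median log2 fold change of -0.0042, against 0.02 over all tested rows. In 16 of the 26 (61.5%) both knockdown libraries lay on the same side of both controls, 7 above and 9 below. Over all tested rows 40.7% showed no overlap between the groups, 21.8% above and 18.9% below. The differences of the members ran from -0.60 to 0.45 on the log2 scale, inside the cloud of all rows in the plot of log2 fold change against mean level.

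**Figure D1:**
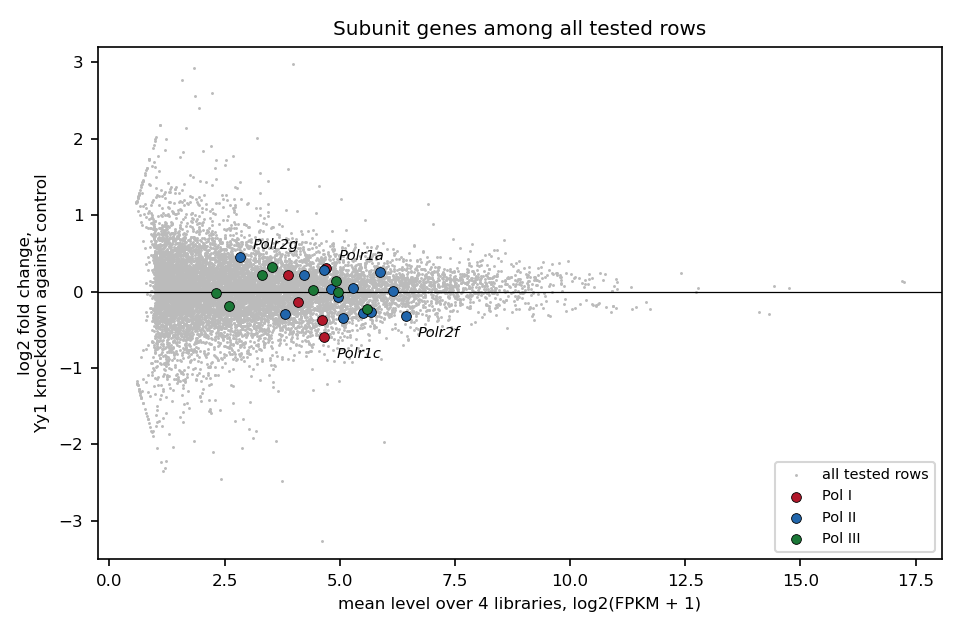
Log2 fold change of Yy1 knockdown against control (vertical) against the mean level of the 4 libraries as log2(FPKM + 1) (horizontal) for all 12120 tested rows in grey and the 26 tested subunit genes in colour by symbol. The subunit genes lie between -0.60 and 0.45 and within the spread of the other rows.

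In control embryos the levels of the subunit transcripts ran from 95.2 FPKM for Polr2f to 4.14 FPKM for Polr3k, with Polr3gl far below at 0.179 FPKM. The median over Pol I symbols was 22.3 FPKM, over Pol II symbols 36.8 FPKM and over the 8 tested Pol III symbols 14.8 FPKM. After Polr2f came Polr2l at 69.8 FPKM, Polr2j at 55.4 FPKM, Polr2k at 52.8 FPKM and Polr3g at 51.4 FPKM, and the control libraries of these last 3 overlapped with each other. Ordered by control mean, 14 of 26 pairs of neighbours had overlapping control libraries. The order and the medians depend on the gene lengths used. Transcripts of subunits found in the same enzyme alone could stand at different levels. Polr2j at 55.4 FPKM and Polr2i at 14.6 FPKM, both of RNA polymerase II alone, are an example, with lengths of 1106 and 1212 bases.

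**Figure D2:**
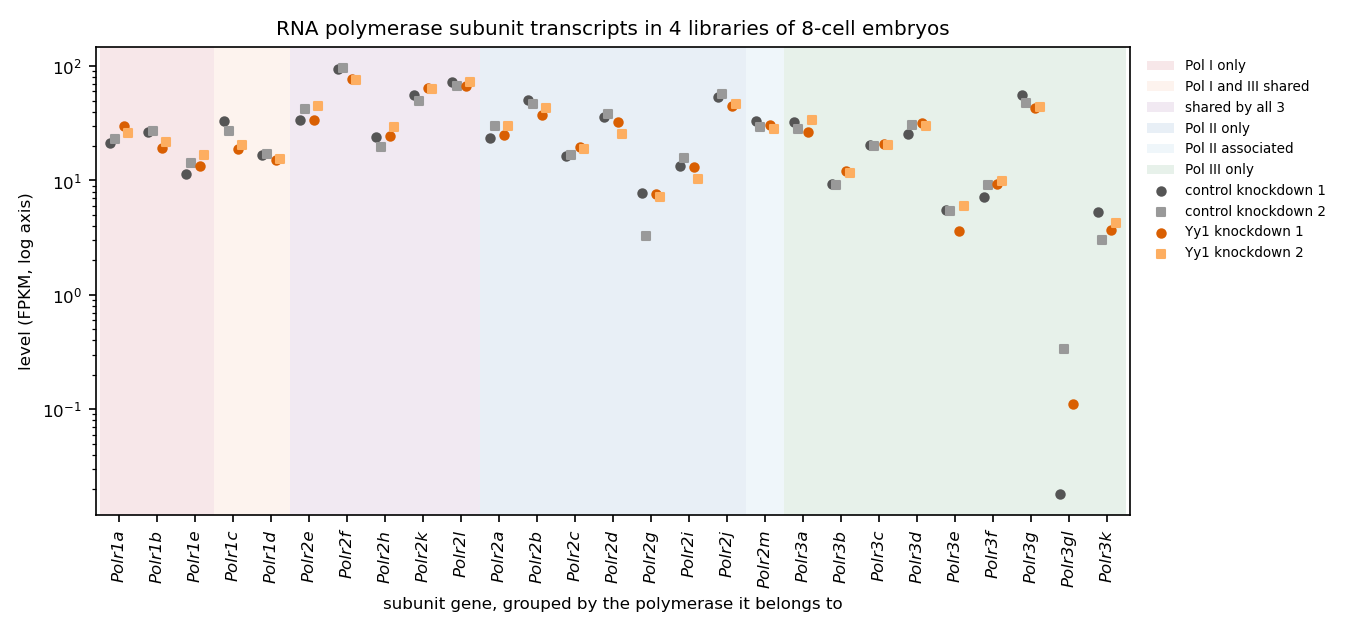
Level of each of the 27 subunit genes described (FPKM, log axis) in each library, grouped by the polymerase the subunit belongs to. Polr2f is the highest in control libraries at 94.7 and 95.7 FPKM, and Polr3gl the lowest, with its value of 0 in knockdown replicate 2 not drawn.

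RNA polymerase I showed its 2 large subunits on opposite sides. Polr1a, the largest subunit (chr6:71909053-71979435 of mm10), stood at 21.3 and 23.3 FPKM in control and at 29.7 and 26.0 FPKM in Yy1 knockdown libraries. Both knockdown libraries were above both controls, with a mean of 22.3 ± 1.37 against 27.9 ± 2.64 FPKM (SD, n = 2 each), a log2 fold change of 0.31 ± 0.15 (SE) and a limma adjusted p of 0.62. Polr1b, the second largest subunit, which completes the active centre (chr2:129100970-129128060), stood at 26.5 and 27.0 FPKM in control and at 19.3 and 21.9 FPKM after knockdown. Both knockdown libraries were below both controls, and the log2 fold change was -0.37 ± 0.15 (SE) with a limma adjusted p of 0.566. Polr1e, part of a subunit pair found in Pol I alone that helps initiation, had 11.4 and 14.1 FPKM in control and 13.4 and 16.6 FPKM after knockdown, and the groups overlapped.

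The ratio of Polr1a to Polr1b in FPKM within a library was 0.804 and 0.86 in control and 1.54 and 1.19 after knockdown. Which of the pair is the higher depends on the lengths used, 11871 bases for Polr1a and 5805 for Polr1b. In fragments Polr1a exceeded Polr1b in every library, so only the shift of the ratio between groups can be read. For RNA polymerase II the ratio of Polr2a to Polr2b was 0.458 and 0.649 in control and 0.674 and 0.691 after knockdown. RNA polymerase III went the other way, with a ratio of Polr3a to Polr3b of 3.48 and 3.03 in control and 2.2 and 2.93 after knockdown. In each of these ratios the groups did not overlap. For Polr1a over Polr1b this follows from the opposite sides given above and adds nothing to them. The other ratios separated narrowly, at 0.649 against 0.674 and at 3.03 against 2.93 in the nearest libraries. How often ratios of other genes separate was not tested. With 2 libraries against 2, an exact permutation test of such a ratio cannot give a two-sided p below 0.333, and the ratios were chosen after the values were seen.

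**Figure D3:**
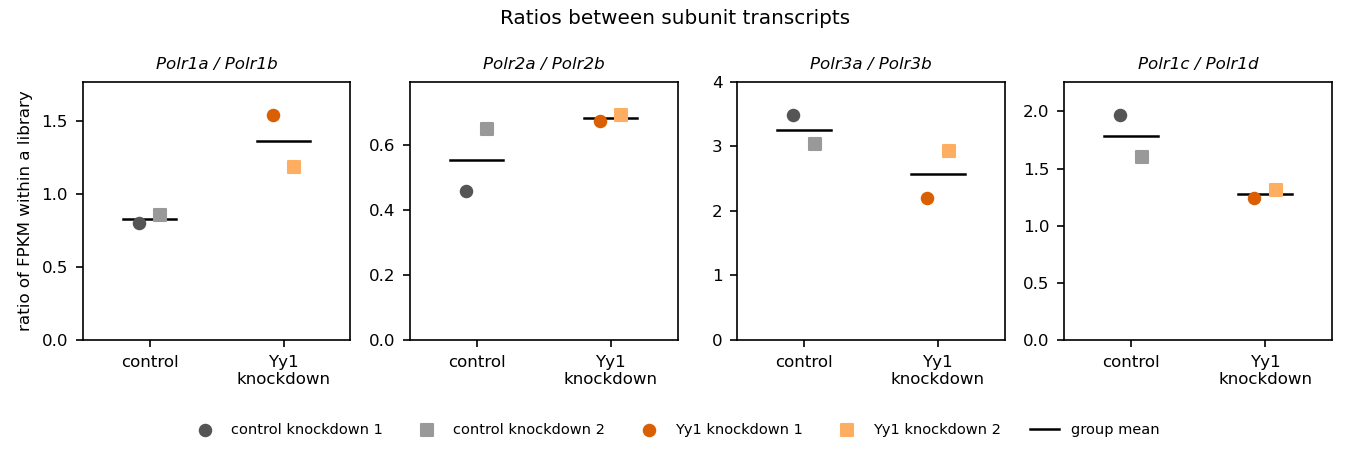
Ratio of FPKM between 2 subunit transcripts within a library, for the largest over the second largest subunit of each polymerase and for Polr1c over Polr1d, with group means as bars. Polr1a over Polr1b is 0.804 and 0.86 in control and 1.54 and 1.19 in Yy1 knockdown libraries.

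The pair shared by RNA polymerases I and III was lower after knockdown in both members. Polr1c and Polr1d form the platform on which both enzymes assemble, and changes in either gene cause Treacher Collins syndrome in people. Polr1c (chr17:46243920-46248045) stood at 32.9 and 27.3 FPKM in control and at 18.7 and 20.3 FPKM after knockdown, from 1356 to 2577 fragments per library. Its lowest control lay well above its highest knockdown library. The mean was 30.1 ± 3.9 FPKM in control and 19.5 ± 1.14 FPKM after knockdown (SD, n = 2 each), 1.54-fold lower, with a log2 fold change of -0.60 ± 0.16 (SE), the largest in size among the members (limma unadjusted p = 0.0123, adjusted p = 0.502). Polr1d had 16.7 and 17.0 FPKM in control and 15.0 and 15.5 FPKM after knockdown, which did not overlap but differed by only -0.14 ± 0.15 (SE) on the log2 scale (limma adjusted p = 0.805). In FPKM Polr1c was 1.97 and 1.6 times as high as Polr1d in the control libraries and 1.24 and 1.31 times as high after knockdown.

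The RefSeq sequence before the start site is shown for Polr1c and for the other members on which this comparison turns, Polr1b, Polr1a and Polr2f, since the study is about a factor that binds such regions. Each stretch is the 120 bases before the start used in the RefSeq promoter table (GRCm38.p6, the assembly of mm10), written 5′ to 3′ along the gene. For Polr1b that start lies inside the gene span given above, so the last 26 bases of its stretch belong to the span. Capitals mark matches, on either strand, to CCGGAAGT, a motif of ETS factors, and to GGGGCGGG, a GC box. The stretches were also searched for TATAAA, the TATA box, and for a pair of YY1 strings given further on.
Polr1c, chr17:46248046-46248165, minus strand: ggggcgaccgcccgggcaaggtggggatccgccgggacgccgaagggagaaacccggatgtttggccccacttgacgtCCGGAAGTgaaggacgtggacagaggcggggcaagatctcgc
Polr2f, chr15:79141205-79141324, plus strand: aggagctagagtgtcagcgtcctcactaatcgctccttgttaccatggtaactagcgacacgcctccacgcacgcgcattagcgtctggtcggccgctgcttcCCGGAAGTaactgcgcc
Polr1b, chr2:129100876-129100995, plus strand: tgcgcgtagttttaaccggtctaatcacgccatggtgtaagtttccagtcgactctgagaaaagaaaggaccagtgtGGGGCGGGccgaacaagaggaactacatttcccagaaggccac
Polr1a, chr6:71908933-71909052, plus strand: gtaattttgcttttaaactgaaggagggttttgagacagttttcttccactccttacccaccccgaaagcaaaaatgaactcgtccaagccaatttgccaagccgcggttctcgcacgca
Polr1c and Polr2f each hold an ETS match in this stretch, Polr1b a GC box, and Polr1a none of the motifs. Both these members and the motifs were chosen after the values were seen. ETS matches were also in the windows of Polr1e, Polr2j and Polr3b, and shares over all windows are given further on. Any link between a motif and the differences was not tested.

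Of the 5 small subunits shared by all 3 polymerases, 4 were higher by group mean (53.2% of all tested rows) and 1, Polr2f, was lower. Among the higher ones only Polr2h and Polr2k lay above both controls. Polr2e and Polr2l had log2 fold changes of only 0.04 and 0.0016. Polr2f encodes a subunit at the base of the clamp of all the enzymes and had the highest FPKM of the members (chr15:79141325-79151774). It stood at 94.7 and 95.7 FPKM in control and at 77.1 and 75.2 FPKM after knockdown, with a gap between groups wider than the gap within either. Its mean was 95.2 ± 0.724 FPKM in control and 76.1 ± 1.38 FPKM after knockdown (SD, n = 2 each), 1.25-fold lower (log2 fold change -0.32 ± 0.12 SE, limma unadjusted p = 0.046, adjusted p = 0.556). Polr2k, a small zinc-binding subunit, had 55.6 and 50.01 FPKM in control and 63.9 and 62.7 FPKM after knockdown, with no overlap (0.26 ± 0.14 SE, limma adjusted p = 0.632). Polr2h had 24.1 and 19.7 FPKM in control and 24.7 and 29.1 FPKM after knockdown, barely apart at the nearest libraries (0.29 ± 0.18 SE, limma adjusted p = 0.674). Polr2e, a jaw subunit, and Polr2l overlapped between groups, at 34.0 to 44.4 FPKM and at 66.6 to 73.0 FPKM over the 4 libraries. Polr2l, a small zinc-binding subunit as well, had the same mean of 69.8 FPKM in both groups. Summed over the 5, the shared subunits came to 281.4 and 273.9 FPKM in control and to 266.3 and 284.3 FPKM after knockdown, which overlap.

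The 7 subunits of RNA polymerase II alone were lower in 4 and higher in 3, with a median log2 fold change of -0.27. Polr2a, the largest subunit, whose tail of repeats is phosphorylated during transcription, had 23.4 and 30.2 FPKM in control and 24.99 and 29.9 FPKM after knockdown, and the groups overlapped (0.04 ± 0.19 SE). Polr2b, the second largest (chr5:77310484-77349328), had 51.0 and 46.6 FPKM in control and 37.1 and 43.3 FPKM after knockdown, with both knockdown libraries lower (-0.28 ± 0.15 SE, limma adjusted p = 0.641). Polr2c and Polr2j form the assembly platform of this enzyme, as Polr1c and Polr1d do in the others, and they stood on opposite sides. Polr2c had 16.3 and 16.6 FPKM in control and 19.8 and 18.7 FPKM after knockdown, both higher (0.22 ± 0.15 SE). Polr2j had 53.4 and 57.5 FPKM in control and 44.8 and 46.7 FPKM after knockdown, both lower (-0.27 ± 0.13 SE). The limma adjusted p was 0.692 for Polr2c and 0.617 for Polr2j.

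Polr2d and Polr2g form the stalk of RNA polymerase II, which binds the emerging RNA. Polr2d had 35.8 and 37.8 FPKM in control and 32.6 and 25.4 FPKM after knockdown, both lower (-0.34 ± 0.17 SE, limma adjusted p = 0.623). Its partner Polr2g had 7.83 and 3.26 FPKM in control and 7.61 and 7.16 FPKM after knockdown. Control replicate 2 alone stood low there, on 89 fragments against 182 to 234 in the other libraries, so the higher group mean of Polr2g (0.45 ± 0.36 SE) rests on that library, and without it the log2 fold change was -0.08. Polr2i, which acts in proofreading of the RNA, had 13.3 and 15.8 FPKM in control and 13.0 and 10.4 FPKM after knockdown, both lower by a narrow margin (-0.30 ± 0.19 SE). Polr2m, which associates with RNA polymerase II and makes it depend on the Mediator complex, had 32.9 and 29.2 FPKM in control and 30.8 and 28.0 FPKM after knockdown and overlapped. Summed over the 7 subunits of Pol II alone, levels were 200.9 and 207.8 FPKM in control and 179.9 and 181.6 FPKM after knockdown, with no overlap. Such a sum is weighted to the genes with the highest FPKM, here Polr2j, Polr2b and Polr2d, which were lower, while 3 of the 7 were higher. How often sums of other genes separate was not tested.

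RNA polymerase III had 4 of its 8 tested symbols higher and 4 lower, with a median log2 fold change of 0.0072, against 0.02 over all tested rows. Polr3a, the largest subunit, had 32.8 and 27.9 FPKM in control and 26.7 and 33.7 FPKM after knockdown, and the groups overlapped. Polr3b, the second largest (chr10:84622292-84727178), had 9.41 and 9.2 FPKM in control and 12.1 and 11.5 FPKM after knockdown, both higher, with the largest log2 fold change among the Pol III symbols (0.32 ± 0.16 SE, limma adjusted p = 0.624). Polr3c, Polr3f and Polr3g encode the trimer through which Pol III opens promoters. Polr3c had 20.5 and 20.1 FPKM in control and 20.7 and 20.6 FPKM after knockdown, nearly the same in all 4 libraries, with a difference of 0.02 ± 0.14 (SE) although the groups did not overlap. Polr3f had 7.21 and 9.18 FPKM in control and 9.36 and 9.88 FPKM after knockdown, both higher (0.22 ± 0.19 SE).

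The remaining subunit of the trimer has 2 alternative genes, Polr3g, typical of pluripotent cells and oocytes, and Polr3gl, typical of differentiated tissues. Polr3g (chr13:81673837-81711013) had 55.4 and 47.4 FPKM in control and 43.3 and 44.0 FPKM after knockdown, both lower (-0.23 ± 0.15 SE, limma adjusted p = 0.678). Polr3gl (chr3:96577872-96594181) had 1 and 17 fragments in the control libraries and 6 and 0 in the knockdown libraries, or 0.0182 and 0.339 FPKM against 0.11 and 0 FPKM. Polr3g made up 99.97% and 99.3% of the pair's FPKM in the control libraries and 99.7% and 100% in the knockdown libraries. Nearly all fragments of the pair were thus from Polr3g in both groups.

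Polr3d and Polr3e form a pair that works in initiation and termination by Pol III. Polr3d had 25.4 and 30.4 FPKM in control and 31.6 and 29.9 FPKM after knockdown, and Polr3e 5.55 and 5.44 against 3.61 and 5.98 FPKM, each with overlap. Polr3k, which trims the RNA at termination, had 5.27 and 3.02 FPKM in control and 3.66 and 4.28 FPKM after knockdown. In Polr3k the 2 control libraries differed more from each other than the group means did.

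**Figure D4:**
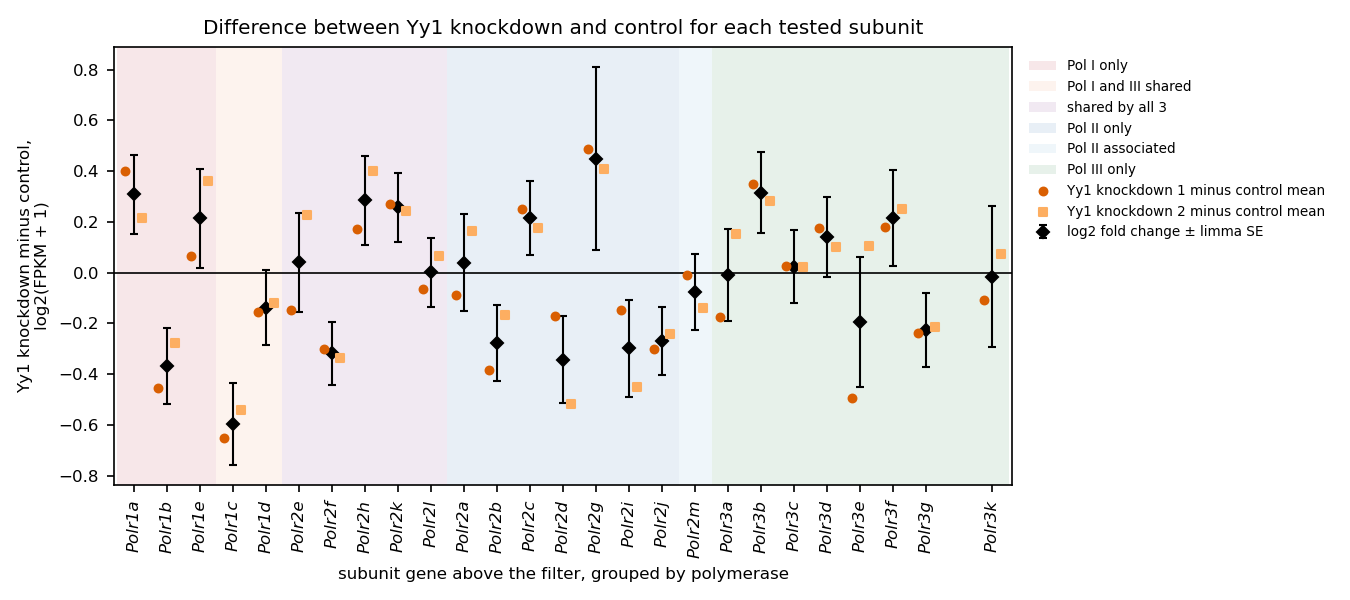
Difference between Yy1 knockdown and control on log2(FPKM + 1) for the 26 tested subunit genes, with the limma estimate and its standard error in black and each knockdown library minus the control mean in orange. Polr1c lies lowest at -0.60, and within each polymerase some subunits lie above 0 and others below.

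Polymerase by polymerase, the median log2 fold change was -0.14 for the 5 Pol I symbols, 0.00 for the 13 Pol II symbols and 0.0072 for the 8 tested Pol III symbols. The Pol I symbols include Polr1c and Polr1d, which Pol III shares, and the 3 genes of Pol I alone had a median of 0.21. The Pol II symbols include Polr2m and the 5 genes shared by all 3 enzymes, which had a median of 0.04. The 7 genes of Pol II alone had a median of -0.27. Groups did not overlap in 4 of 5 Pol I symbols (1 above, 3 below), in 8 of 13 Pol II symbols (3 above, 5 below) and in 4 of 8 Pol III symbols (3 above, 1 below), against 40.7% of all tested rows (21.8% above, 18.9% below). The summed FPKM of the 5 Pol I symbols was 108.85 and 108.76 in the control libraries and 96.1 and 100.3 after knockdown. For the 13 Pol II symbols it was 515.2 and 510.8 against 477.0 and 494.0, and for the 9 Pol III symbols 161.5 and 153.0 against 151.1 and 160.0. The first 2 sums were lower in both knockdown libraries, and the Pol III sums overlapped. Sums are weighted to the genes with the highest FPKM, such as Polr2f, which was lower. By group mean 7 of the 13 Pol II symbols were higher and 6 lower. How often sums of other genes separate was not tested. The 3 genes of Pol I alone summed to 59.3 and 64.4 FPKM in control and 62.4 and 64.5 FPKM after knockdown, which overlap, and Polr1c with Polr1d to 49.6 and 44.4 against 33.8 and 35.8 FPKM. This pair is counted in the Pol I sum and not in the Pol III sum. Whether the polymerases differed from each other was not tested.

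Subunits of RNA polymerases I and III that go by other symbols were in the table as 4 rows, none of which passed. Cd3eap, the partner of Polr1e, had 17.6 and 21.8 FPKM in control and 24.7 and 23.1 FPKM after knockdown. Twistnb, a Pol I stalk subunit, had 30.8 and 32.1 FPKM against 34.3 and 33.5 FPKM, and Crcp, a Pol III subunit, 29.7 and 28.2 FPKM against 30.5 and 33.7 FPKM. These 3 were higher in both knockdown libraries, as were 21.8% of all tested rows. Znrd1, a small Pol I subunit that cleaves RNA, overlapped at 36.1 to 48.3 FPKM over the 4 libraries.

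The factors that bring the polymerases to genes did not pass either, in any of the lists tested. Of 8 Pol I factors 5 were higher and 3 lower (median log2 fold change 0.04), and 2 had an unadjusted p under 0.05, both higher, against 4.22% of all tested rows in that direction. Taf1a, a subunit of the Pol I selectivity factor, had 31.1 and 32.4 FPKM in control and 48.9 and 47.2 FPKM after knockdown (0.58 ± 0.13 SE, limma adjusted p = 0.462), and Ptrf, named for a role in transcript release, 1.43 and 2.2 against 3.48 and 3.15 FPKM. Rrn3, which ties Pol I to its promoter, had 81.1 and 64.2 FPKM against 98.5 and 79.5 FPKM and overlapped. Of 30 tested general factors of Pol II 13 were higher and 17 lower (median -0.02). At a limma unadjusted p under 0.05, 1 was higher and 1 lower, against 4.22% and 4.69% of all tested rows. Among the general factors Taf5, a TFIID subunit, had 10.1 and 12.4 FPKM in control and 17.6 and 18.4 FPKM after knockdown. Gtf2a1, of TFIIA, had 17.7 and 20.1 against 14.5 and 13.3 FPKM, and Gtf2f2, of TFIIF, 58.8 and 62.7 against 76.8 and 72.6 FPKM.

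Of 21 pausing and elongation factors of Pol II 9 were higher and 12 lower (median -0.06). At a limma unadjusted p under 0.05, 1 was higher and 2 lower, against 4.22% and 4.69% of all tested rows. Supt4a, a subunit of the elongation factor DSIF, had 45.4 and 41.6 FPKM in control and 59.0 and 61.8 FPKM after knockdown. Nelfcd, a subunit of the pausing factor NELF, had 21.7 and 19.7 FPKM against 15.2 and 13.3 FPKM, and Hexim1, an inhibitor of the elongation kinase, 13.6 and 19.8 against 10.1 and 11.005 FPKM. Of 16 Pol III factors 8 were higher and 8 lower (median -0.04), and 2 had an unadjusted p under 0.05, both lower, against 4.69% of all tested rows in that direction. Both encode subunits of TFIIIC, which binds the promoters of transfer RNA genes. These were Gtf3c6, at 12.04 and 11.7 FPKM in control and 7.95 and 6.91 FPKM after knockdown, and Gtf3c1, at 22.4 in each control and 16.1 FPKM in each knockdown library. The other TFIIIC genes had log2 fold changes of 0.28 (Gtf3c5), 0.0075 (Gtf3c2), -0.08 (Gtf3c4) and -0.13 (Gtf3c3). Snapc3, of the complex at small nuclear RNA genes, had 6.39 and 7.57 FPKM against 5.43 and 4.71 FPKM. The limma adjusted p of the genes named here lay at 0.502 or above, apart from Taf1a.

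Of 13 assembly and import factors of the polymerases 6 were higher and 7 lower (median -0.02). At a limma unadjusted p under 0.05, 2 were higher, against 4.22% of all tested rows in that direction. Pih1d1, of a chaperone complex that assembles polymerases, had 3.68 and 4.15 FPKM in control and 6.26 and 7.26 FPKM after knockdown, and Gpn2, a GTPase of polymerase assembly, 2.78 and 2.13 against 4.57 and 4.19 FPKM. Slc7a6os, whose yeast relative carries Pol II into the nucleus, had 4.73 and 7.13 FPKM against 4.0 and 4.42 FPKM. Of 6 tested genes of mitochondrial transcription, outside the 3 nuclear enzymes, 5 were higher and 1 lower (median 0.08). The mitochondrial RNA polymerase gene Polrmt had 33.6 and 29.6 FPKM in control and 31.0 and 21.3 FPKM after knockdown, its factor Tfam 4.18 and 3.34 against 4.95 and 5.67 FPKM, and Mterf3 3.46 and 3.39 against 3.61 and 3.79 FPKM.

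Promoter windows of 250 bases before to 50 bases after the start were in the RefSeq table for 22 of the 27 members, as 24 windows. Shares of members count genes with a match in any window, while shares for genes above the filter count windows, so the measures differ slightly. The YY1 motif AANATGGC, searched on both strands, was in the windows of 2 of these 22 (9.09%), Polr2i and Polr3e. It was in 9.68% of the 8617 windows of genes above the filter. A related YY1 string, GATGGCGG, which can overlap with the first, was in none of the 22 (0%), against 3.93%. The 2 matches are shown with the bases around them, the match in capitals.
Polr2i, chr7:30231824-30231842, plus strand: AACATGGCcagccaatcgc
Polr3e, chr7:120917801-120917827, plus strand: tctccagcaggAACATGGCcgctgcct
The match in Polr2i lies at the far end of its window, 250 bases before the start, and that in Polr3e begins 35 bases into the transcript. Polr2i was lower in both knockdown libraries, while Polr3e overlapped between groups. Polr1c and Polr2f, with the smallest p among the members, had no such string in the window.

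The ETS motif shown above was in 5 of the 22 members (22.7%) and in 9.52% of the windows of genes above the filter, and without its last base in 7 (31.8%) against 20.3%. Of the 5, Polr1c, Polr2f and Polr2j were lower and Polr3b higher in both knockdown libraries, and Polr1e overlapped. Groups did not overlap in 61.5% of all tested members. Over all tested rows the share was 40.7%, with 21.8% above and 18.9% below. Whether members with an ETS match differ from the others was not tested. GC boxes were in 8 members (36.4%, against 30.8%) and TATA boxes in 2 (9.09%, against 7.03%), Polr2a and Polr2c. The motifs were chosen after the values were seen. A match describes letters only, and YY1 binding was not analysed here.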

How the data were processed

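Per the labels' protocols, a stranded SMART-Seq kit was used on total RNA. The authors deposited FPKM in 1 table of 49585 rows. The submitters' processing notes name HISAT2 2.2.1, featureCounts, Trim Galore 0.6.7 and mm10, without assigning tools to assays. For the annotation, strand setting and multi-mapping nothing is given in the sources used here. The 9 of 27 members whose RefSeq span overlaps another gene are therefore less certain. They are Polr1a, Polr1d, Polr1e, Polr2b, Polr2c, Polr2i, Polr2k, Polr3b and Polr3c. Each ratio of the largest to the second largest subunit, and that of Polr1c to Polr1d, holds a member of this list. Members and lists were chosen with earlier results of these data known. Rows whose mean reached 1 FPKM were tested as log2(FPKM + 1) with limma 3.58.1 in R 4.3.3, group as the only term, with a mean-variance trend and Benjamini-Hochberg adjustment over 12120 rows; fold changes on this scale understate the change of low genes. Whole fragments were worked out from the ratios between FPKM values (12114 of 12120 rows gave whole counts within 0.001 fragments). PCR copies are not independent molecules. The spread behind the p-values is that between these libraries and may be technical. Of the 28 rows the rule finds, 1 is not reported here and is left out of the members' counts, medians and sums. All others are named, and up to 3 genes per list by smallest p. Coordinates and promoters come from RefSeq tables of GRCm38.p6; all 27 members matched the gene table by symbol. The fit and the recovery of counts were tested on simulated data. Alternatives were another pseudocount, no filter or 5 FPKM, 2 scalings, a replicate block, limma-voom on recovered fragments, robust eBayes and leaving out each library.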

Additional observations from a re-analysis of the deposited data

How the results depend on the processing

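No member was called under any of the 12 alternatives, and the smallest limma adjusted p of a member in any of them was 0.295, for Polr1c. The number of called rows over the whole table was 0 with all libraries and 0 with the pseudocount, no-filter, scaling and leave-one-out alternatives. It was 4 with a filter of 5 FPKM, where fewer rows were tested, 1 with robust eBayes and 13 with limma-voom on recovered fragments. The cause of the robust and voom counts was not tested. With a replicate block 0 rows and 0 members were called. The correlation of the deviations of same-numbered libraries was 0.0994 over 12120 rows, and the labels do not tie the numbers to a shared collection, so the block is not used.

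Of the 26 tested members 18 kept their direction under every alternative run. For the 16 of these whose groups do not overlap, leaving out 1 library cannot turn the direction, and the other 2 are Polr1e and Polr3d. Leaving out 1 library moved the log2 fold change of 9 of the 18 by over 1.5 times, to 0.07 to 0.36 for Polr1e, -0.39 to -0.17 for Polr2b, -0.52 to -0.17 for Polr2d, 0.15 to 0.42 for Polr2h, -0.45 to -0.15 for Polr2i, 0.0085 to 0.0402 for Polr3c, 0.0148 to 0.27 for Polr3d, 0.06 to 0.37 for Polr3f and -0.34 to -0.12 for Polr3g. It was -0.72 to -0.47 for Polr1c and -0.34 to -0.30 for Polr2f. The direction of the other 8 turned when a library was left out. Their log2 fold changes then ran from -0.14 to 0.22 for Polr2a, -0.15 to 0.23 for Polr2e, -0.0757 to 0.97 for Polr2g, -0.0636 to 0.0667 for Polr2l, -0.16 to 0.0098 for Polr2m, -0.17 to 0.15 for Polr3a, -0.49 to 0.11 for Polr3e and -0.34 to 0.31 for Polr3k. Both scalings and voom turned Polr2l, at -0.0185 with median-ratio scaling, -0.0267 with quantile normalization and -0.0012 with voom, and quantile normalization turned Polr3a, at 0.012. The median of the Pol I symbols was -0.156 to -0.119 when 1 library was left out, that of the Pol II symbols -0.104 to 0.0664 and that of the Pol III symbols -0.0568 to 0.104. Precision is limited by the 2 libraries in each group.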
